A study of Homo sapiens with 12 samples.

Results

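The genes described here carry out the last steps of noradrenaline synthesis and fill the secretory granules that store it. They were taken from a fixed list of 10 symbols and matched to the Ensembl identifiers of the deposited count table, where all 10 were found among 60664 genes. DBH, DDC and CYB561 serve synthesis, CHGA, CHGB, SCG2, SCG3, SCG5 and VGF are granins or granin-like proteins, and SERPINI1 encodes a protease inhibitor released from granules. The RNA came from SK-N-SH, an established human neuroblastoma line of mixed neuron-like and flat adherent cells, described in the labels as tumor cells. Cells were on substrates of 1, 8 or 30 kPa, where a higher value is a stiffer surface, with 4 libraries per stiffness and no other treatment or genotype named. The study asked how surface stiffness shapes the transcriptome of neuroblastoma cells. The labels do not state the substrate material, the time on it, or whether the 4 libraries of a group came from separate cultures, so p-values rest on a spread between libraries that may be technical only.

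Sympathetic neurons and chromaffin cells, the normal relatives of neuroblastoma, make noradrenaline from tyrosine. Tyrosine hydroxylase makes DOPA, DDC converts it to dopamine in the cytosol, a vesicular monoamine transporter carries dopamine into granules, and DBH converts it to noradrenaline there with ascorbate that CYB561 helps to regenerate. Granins are acidic proteins that aggregate in the trans-Golgi network, form the granule core and are cut into peptides by prohormone convertases. Chromogranin A and catecholamines are long-standing clinical markers of neuroendocrine tumours.

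Several granin genes are known to be induced through cAMP response elements (CREs), so promoter sequence is given first for 4 of the genes. RefSeq promoter sequence (GRCh38.p14) was matched by symbol for 8 of the 10 genes, not for CHGB and SCG2. The windows hold the 250 bases before the RefSeq start, on the gene's own strand. DDC and CYB561 have several such windows. The RefSeq start can differ from the GENCODE start of the gene positions given below. The DBH and SERPINI1 windows, and some of those of DDC and CYB561, lie inside those positions. Others lie partly inside, among them those of CHGA and SCG5. The windows were searched on both strands for the full palindromic element TGACGTCA and its core TGACG, which lies inside the full element. The full element was found for VGF (chr7:101165570-101165819, minus strand), its first base 79 bases before the start, and for CHGA (chr14:92922900-92923149, plus strand), 54 bases before it. DBH (chr9:133636113-133636362, plus strand) held the core alone, 181 bases before the start, and SCG5 held it 17 bases before. The CHGA element and the DBH and SCG5 cores lie inside the GENCODE positions of their genes. The windows of SERPINI1 (chr3:167735471-167735720, plus strand), DDC, CYB561 and SCG3 held neither. Of 35116 promoter windows of that length, 1.65% held the full element and 21.2% the core. Capitals mark the element, or the core in DBH. VGF and CHGA carry the same full element and are shown because the first passed the test as lower at 30 than at 1 kPa and the second did not pass, DBH because it is the synthesis enzyme of the granule, and SERPINI1 because it had the largest fall of the 10.
VGF: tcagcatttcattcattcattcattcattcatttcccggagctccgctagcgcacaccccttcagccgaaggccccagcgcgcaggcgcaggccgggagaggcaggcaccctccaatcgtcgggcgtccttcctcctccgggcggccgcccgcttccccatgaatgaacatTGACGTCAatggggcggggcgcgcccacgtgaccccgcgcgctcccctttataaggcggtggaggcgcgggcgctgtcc
CHGA: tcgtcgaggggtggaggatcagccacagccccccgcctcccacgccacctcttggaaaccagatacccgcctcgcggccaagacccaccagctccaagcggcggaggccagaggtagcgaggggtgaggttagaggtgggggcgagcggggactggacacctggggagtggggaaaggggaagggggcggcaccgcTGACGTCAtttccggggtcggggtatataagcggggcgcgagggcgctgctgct
DBH: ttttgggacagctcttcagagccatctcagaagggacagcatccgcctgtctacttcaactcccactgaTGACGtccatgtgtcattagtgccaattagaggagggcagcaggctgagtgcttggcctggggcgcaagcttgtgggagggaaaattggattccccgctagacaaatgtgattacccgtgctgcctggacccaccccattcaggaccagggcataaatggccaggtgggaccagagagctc
SERPINI1: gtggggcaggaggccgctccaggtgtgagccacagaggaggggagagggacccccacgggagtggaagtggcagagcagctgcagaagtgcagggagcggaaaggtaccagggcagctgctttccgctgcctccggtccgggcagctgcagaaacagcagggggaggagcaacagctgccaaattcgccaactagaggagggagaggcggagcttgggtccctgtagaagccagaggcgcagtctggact
A match of letters describes the window and was not tested as a binding site.

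Each library held between 1.43e+07 and 1.59e+07 counts on 1 kPa, between 1.50e+07 and 2.53e+07 on 8 kPa and between 2.39e+07 and 2.78e+07 on 30 kPa. The 4 libraries at 1 kPa and 8 kPa replicate 1 form a shallow class of 5, and the other 7 are deep, so that depth and stiffness cannot be told apart between 1 and 30 kPa. All 10 genes passed the filter on low counts, with 190 to 58244 counts per library. The sympathetic regulator PHOX2A stood at 31.4 ± 5.47, 44.2 ± 6.96 and 45.2 ± 3.88 CPM, counts scaled to the TMM-adjusted library size, at 1, 8 and 30 kPa (SD, n = 4 each). Mesenchymal-type neuroblastoma genes summed to 5058 to 5481, 4586 to 5356 and 4343 to 4863 CPM. At 8 against 1 kPa 1 of the 12 had a log2 fold change above 0 and 11 below, with a median of -0.12. There 0 passed and 5 had an unadjusted p under 0.05, beside 31.2% of all tested genes. At 30 against 8 kPa 7 were above 0 and 5 below (median 0.07). At 30 against 1 kPa 6 were above 0 and 6 below, with a median of -0.03. PRRX1, a mesenchymal homeobox factor (-0.35, SE 0.06, adjusted p = 0.0144), and YAP1, a Hippo pathway coactivator (-0.22, SE 0.05, adjusted p = 0.0427), were the 2 that passed, both lower. The 6 immune markers summed to at most 1.05 CPM, the 6 Schwann cell markers to at most 6.10 CPM and the 6 epithelial markers to 46.5 to 72.6 CPM, while the 7 fibroblast markers, which mesenchymal-type tumour cells also express, summed to 734 to 1079 CPM. Of the Schwann cell markers S100B passed at 8 against 1 kPa (log2 fold change 1.14, adjusted p = 0.0314), at means of 0.77, 1.74 and 1.46 CPM. The 5 endothelial markers summed to 3.66 to 9.36, 1.84 to 7.61 and 1.65 to 2.36 CPM, nearly all of it PECAM1, named after its values were seen, which was lower at 30 than at 1 kPa without overlap (-1.75, adjusted p = 0.0521) beside SCG2, VGF and SERPINI1, while CDH5 had at most 1 count in a library; its part in their change was not tested. A change in the mix of cells and a change in RNA per cell cannot be told apart in these bulk libraries.

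SCG2, VGF and SERPINI1 were lower at 30 kPa than at 1 kPa, and none of the other genes passed the threshold of 0.05 in edgeR's test in any pair of stiffnesses. Against 1 kPa, 3 of the 10 genes passed at 30 kPa, all lower, where 2.43% of the 17960 tested genes passed in either direction, 1.1% higher and 1.33% lower. At an unadjusted p under 0.05 there were 5 of the 10, beside 18.9% of all tested genes. DESeq2 called 4 there, CHGA being the added gene and higher, where it called 7.38% of the genes it tested. At 8 kPa against 1 kPa, 0 of the 10 passed edgeR's quasi-likelihood test, where 13.8% of tested genes did (8.17% higher and 5.6% lower). There 2 had an unadjusted p under 0.05, beside 31.2% of tested genes, and DESeq2 called 1 (SCG3, higher), where it called 22.3% of the genes it tested. At 30 kPa against 8 kPa, 0 of the 10 and 0% of all tested genes passed edgeR's test; 3 of the 10 had an unadjusted p under 0.05 (17.9% of all genes), and DESeq2 called 2 (SCG2 and SERPINI1, lower), where it called 3.38% of the genes it tested. The test across all 3 stiffnesses called the same 3 genes, where 9.16% of tested genes passed. The median log2 fold change of the 10 genes was 0.12, -0.02 and -0.16 for 8 against 1, 30 against 1 and 30 against 8 kPa, beside -0.01, 0.00 and 0.00 over all tested genes.

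**Figure D1:**
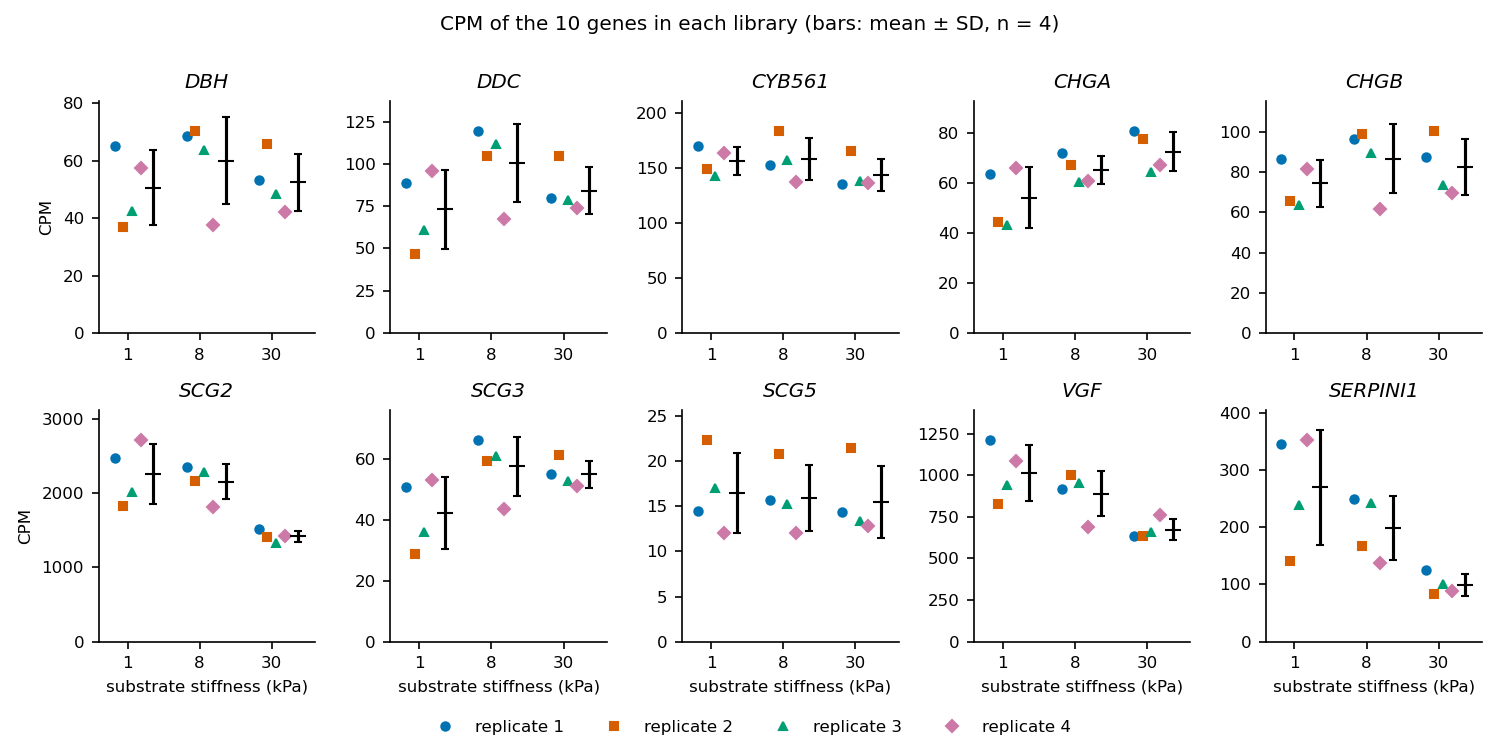
Level of each of the 10 genes in CPM (vertical axis, from 0) against substrate stiffness in kPa; coloured markers are replicates 1 to 4 and black bars the mean ± SD of 4 libraries. SCG2 and SERPINI1 at 30 kPa lie below every library at 1 and 8 kPa, while the DBH and DDC groups overlap.

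Of the synthesis enzymes, DBH (GRCh38 chr9:133635348-133659344, plus strand) had 65.2, 37.0, 42.5 and 57.6 CPM in replicates 1 to 4 at 1 kPa, 68.5, 70.3, 63.8 and 37.5 at 8 kPa, with 53.2, 65.8, 48.5 and 42.3 at 30 kPa. The groups overlapped throughout, and the spread within 8 kPa, set by its replicate 4, exceeded the differences between means of 50.6 ± 13.1, 60.0 ± 15.2 and 52.5 ± 9.97 CPM (SD, n = 4). Its log2 fold change was 0.24 at 8 against 1 kPa (95% interval -0.19 to 0.68, adjusted p = 0.442) and 0.05 at 30 against 1 kPa (interval -0.39 to 0.49, adjusted p = 0.929). Both intervals hold falls and rises, so the lack of a call does not show that DBH was unchanged.

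DDC (chr7:50458436-50565457, minus strand), which makes dopamine from DOPA and also serotonin in other cells, had 89.0, 46.7, 60.9 and 96.0 CPM at 1 kPa, 119.3, 104.4, 111.6 and 67.2 at 8 kPa, with 79.9, 104.7, 78.4 and 73.7 at 30 kPa. Of its 8 kPa libraries 3 lay above all of those at 1 kPa and replicate 4 among them. The log2 fold change at 8 against 1 kPa was 0.46 (SE 0.21, interval 0.01 to 0.91, adjusted p = 0.154), and leaving out 8 kPa replicate 4 gave a call (0.61, adjusted p = 0.0416). Calls over the whole table rose in that fit as well, from 2472 to 3465. At 30 against 1 kPa the log2 fold change of DDC was 0.20 (SE 0.21, adjusted p = 0.661).

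CYB561 (chr17:63432304-63446378, minus strand), the granule membrane cytochrome, was the steadiest of the enzymes, with 143.0 to 169.9 CPM at 1 kPa, 137.9 to 183.7 at 8 kPa and 135.5 to 165.3 at 30 kPa. Its log2 fold change was 0.01 (SE 0.09) at 8 against 1 kPa and -0.12 (SE 0.09, interval -0.32 to 0.07) at 30 against 1 kPa.

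The step before DDC was all but missing from these libraries. TH, which encodes tyrosine hydroxylase and commits tyrosine to the pathway, had 1 count in all 12 libraries together, out of 250731579, under the floor of 3 counts that corresponds to 0.21 CPM in the shallowest library and 0.11 in the deepest. PNMT, which turns noradrenaline into adrenaline, had 59 counts over the 12 libraries and SLC18A2, the vesicular monoamine transporter of neurons, 64. SLC18A1, the chromaffin-cell transporter, was measured at 15.8 ± 4.36, 15.8 ± 4.59 and 11.8 ± 2.75 CPM, and 30 against 1 kPa gave a log2 difference of -0.43 (SE 0.23, adjusted p = 0.347). DBH and DDC were thus measured in libraries with the chromaffin-type transporter and next to no TH reads.

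Several annotated genes overlap the enzymes and granins. DBH-AS1, antisense to DBH with 118 shared exon bases, stood at 2.5, 2.2 and 2.1 CPM at 1, 8 and 30 kPa. DDC-AS1 shares 114 exon bases with DDC and FIGNL1, on the same strand as DDC, shares none; SCG5-AS1 shares 11 with SCG5, and AC020892.1 and AC020892.2 lie opposite SCG3 with no shared exon bases. The strand setting of the counting is not given in the sources used here, so sense and antisense reads in the shared bases cannot be told apart.

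Among the granins, CHGA (chr14:92923080-92935293, plus strand), chromogranin A, had 63.4, 44.2, 43.0 and 65.9 CPM at 1 kPa, 71.8, 67.3, 60.2 and 60.8 at 8 kPa, with 80.6, 77.6, 64.5 and 67.0 at 30 kPa. Its lowest 30 kPa library lay just under its highest 1 kPa library, so the groups overlapped by that pair only. The means were 54.1 ± 12.2, 65.0 ± 5.55 and 72.4 ± 7.85 CPM, and the log2 fold change at 30 against 1 kPa was 0.42 (SE 0.13, interval 0.14 to 0.69, adjusted p = 0.0969). With the replicate number as a block the value was 0.43 and passed (adjusted p = 0.0397). Deviations from group means correlated at 0.12 to 0.311 between same-numbered 1 and 30 kPa libraries, and other pairs were not compared. Leaving out 1 kPa replicate 4 (adjusted p = 0.0408), DESeq2 (adjusted p = 0.0383) and the fit without the low-count filter (adjusted p = 0.00663) also gave a call. Calls over the whole table rose in each of these settings too. They went from 437 to 974 with the block, 583 without that library, 1068 with DESeq2 and 875 without the filter.

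CHGB (chr20:5911430-5925361, plus strand), chromogranin B, had 86.7, 65.5, 63.7 and 81.8 CPM at 1 kPa, 96.7, 98.8, 89.6 and 61.7 at 8 kPa, with 87.4, 100.4, 73.7 and 69.9 at 30 kPa. The groups overlapped, and its order of libraries within a group was close to that of DBH. Its log2 fold change was 0.22 (SE 0.15, adjusted p = 0.344) at 8 against 1 kPa and 0.15 (SE 0.15, adjusted p = 0.635) at 30 against 1 kPa.

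SCG3 (chr15:51681353-51721031, plus strand), which binds chromogranin A and tethers it to the granule membrane, had 50.8, 28.8, 36.0 and 53.0 CPM at 1 kPa, 66.1, 59.3, 60.7 and 43.6 at 8 kPa, with 54.8, 61.1, 52.6 and 51.0 at 30 kPa. As with DDC, 3 of the 8 kPa libraries stood above all 1 kPa libraries and replicate 4 did not. The log2 fold change was 0.44 (SE 0.16, interval 0.09 to 0.79, adjusted p = 0.0857) at 8 against 1 kPa and 0.38 (SE 0.16, adjusted p = 0.227) at 30 against 1 kPa. It passed at 8 against 1 kPa without 8 kPa replicate 4 or without 1 kPa replicate 4 (smallest adjusted p 0.0275). Calls over the whole table also rose in those fits, from 2472 to 3465 and 3563.

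SCG2 (chr2:223596940-223602503, minus strand), the precursor of the peptide secretoneurin, was the most abundant of the 10 genes, with 2468, 1823, 2016 and 2714 CPM at 1 kPa, 2347, 2154, 2277 and 1814 at 8 kPa, with 1512, 1410, 1323 and 1421 at 30 kPa. Every 30 kPa library lay below every library of the softer groups. The mean fell from 2255 ± 408 at 1 kPa to 1417 ± 77.2 at 30 kPa (SD, n = 4), which is -0.67 on the log2 scale (SE 0.12, interval -0.92 to -0.42, adjusted p = 0.0139), or 0.63-fold. At 8 kPa the mean was 2148 ± 237, or -0.07 on the log2 scale against 1 kPa (SE 0.12, adjusted p = 0.722), and 30 against 8 kPa gave -0.60 (SE 0.12, adjusted p = 0.106).

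VGF (chr7:101162509-101165593, minus strand), a granin-like precursor induced by neurotrophins, had 1212, 825.1, 939.7 and 1082 CPM at 1 kPa, 913.7, 999.7, 950.4 and 691.1 at 8 kPa, with 633.3, 637.2, 657.3 and 763.2 at 30 kPa. The 30 kPa libraries lay below all at 1 kPa and overlapped with those at 8 kPa through 8 kPa replicate 4. The log2 fold change at 30 against 1 kPa was -0.59 (SE 0.13, interval -0.86 to -0.32, adjusted p = 0.0281). At 8 against 1 kPa it was -0.19 (SE 0.13, adjusted p = 0.32) and at 30 against 8 kPa -0.40 (SE 0.13, adjusted p = 0.16).

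SERPINI1 (chr3:167735243-167825568, plus strand) encodes neuroserpin, an inhibitor of tissue plasminogen activator that neurons release from granules. It had 346.6, 141.5, 238.6 and 353.3 CPM at 1 kPa, 250.5, 168.2, 242.9 and 136.8 at 8 kPa, with 125.9, 82.8, 100.8 and 88.0 at 30 kPa. Every library at 30 kPa lay below every one at 1 and 8 kPa, although the 1 kPa libraries themselves spread widely, replicate 2 being the lowest. The means were 270.0 ± 100.5, 199.6 ± 56.0 and 99.4 ± 19.2 CPM at 1, 8 and 30 kPa, and 30 against 1 kPa gave -1.44 on the log2 scale (SE 0.26, adjusted p = 0.0146), or 0.37-fold. Against 8 kPa it was -1.01 (SE 0.26, adjusted p = 0.133).

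The 3 calls at 30 against 1 kPa compare shallow with deep libraries, and some were lost when 1 library was left out. With depth class as a further term no gene of the whole table was called. The values were -0.50 for SCG2 (SE 0.23, adjusted p = 0.511), -0.54 for VGF (SE 0.26, adjusted p = 0.512) and -0.99 for SERPINI1 (SE 0.49, adjusted p = 0.534). Without the term the SEs were 0.12, 0.13 and 0.26. Only 8 kPa held both depth classes, so the term rests on its replicate 1 against its other libraries. No comparison of 1 with 30 kPa within a depth class was possible. Within the 7 deep libraries, 30 against 8 kPa gave -0.55 for SCG2 (SE 0.09, adjusted p = 0.0675), -0.38 for VGF (SE 0.12, adjusted p = 0.218) and -0.87 for SERPINI1 (SE 0.18, adjusted p = 0.145), all in the same direction as with every library. Without 30 kPa replicate 3 none of the 3 passed (SCG2 0.0622, VGF 0.1, SERPINI1 0.0601), and the table as a whole fell from 437 calls to 50. SERPINI1 was also lost without 30 kPa replicate 4 (0.0501), and VGF without 1 kPa replicate 1 (0.0837), 1 kPa replicate 3 (0.0555), 30 kPa replicate 1 (0.0715) or 30 kPa replicate 2 (0.0684).

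Without overlap between the libraries, 3 genes were lower at 30 than at 1 kPa (SCG2, VGF and SERPINI1, where 5.33% of tested genes were higher and 6.06% lower in this way) and 2 were lower at 30 than at 8 kPa (SCG2 and SERPINI1, where the shares were 4.79% and 6.5%). Between 8 and 1 kPa 0 of the 10 were free of overlap, where 9.41% of tested genes were higher and 7.36% lower in this way. Within the shallow class, 8 kPa replicate 1 alone stood above all 4 libraries at 1 kPa for DBH, DDC, CHGA, CHGB and SCG3 and within their range for the other 5 genes, where 29.9% of tested genes lay above all and 30.6% below all.

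**Figure D2:**
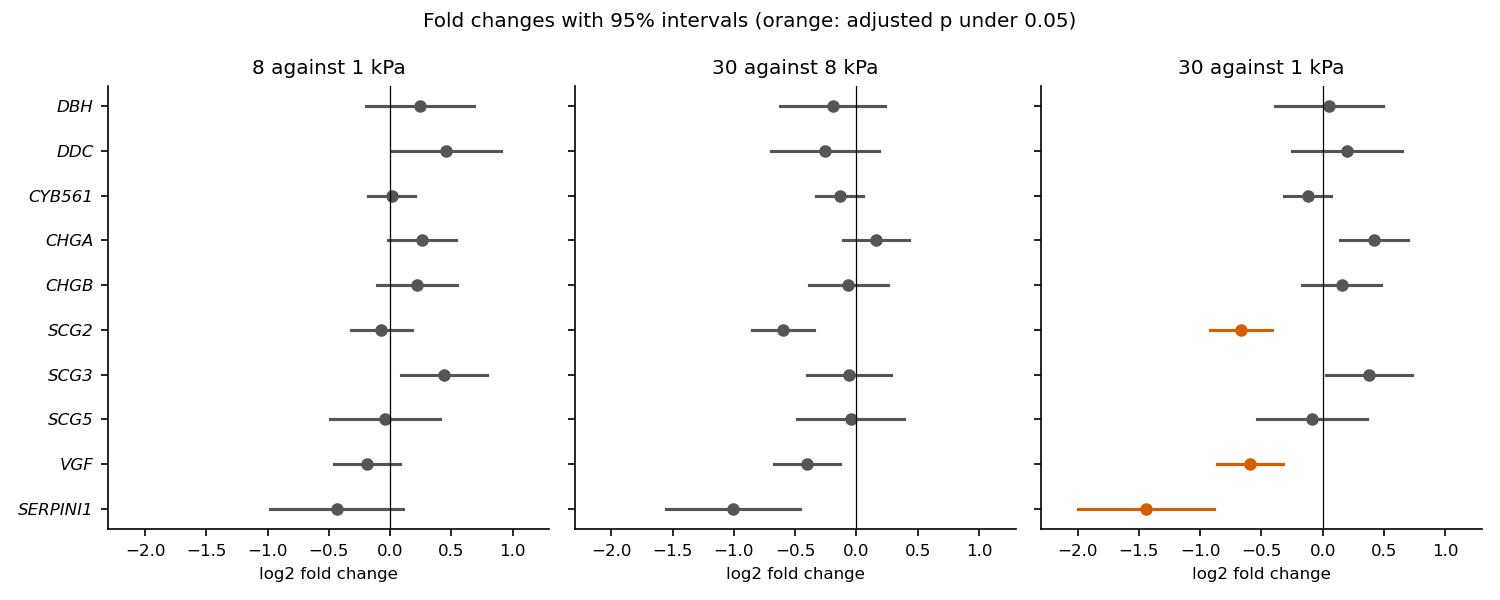
Log2 fold change of each gene (horizontal axis) with its 95% interval for 8 against 1, 30 against 8 and 30 against 1 kPa; orange marks an adjusted p under 0.05. Only SCG2, VGF and SERPINI1 at 30 against 1 kPa are orange, at -0.67, -0.59 and -1.44.

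SCG5 (chr15:32641676-32697098, plus strand) encodes 7B2, the chaperone of prohormone convertase PC2. It had 14.5, 22.4, 17.0 and 12.0 CPM at 1 kPa, 15.7, 20.8, 15.3 and 12.0 at 8 kPa, with 14.4, 21.5, 13.3 and 12.8 at 30 kPa. Replicate 2 was the highest and replicate 4 the lowest library in each of the 3 groups, and the group means lay within 1 SD of one another. Its log2 fold changes were -0.04, -0.09 and -0.05 for 8 against 1, 30 against 1 and 30 against 8 kPa, with an SE of 0.21 at 30 against 1 kPa that became 0.08 with the replicate number as a block, still with no call (adjusted p = 0.572). PCSK2, the gene of the convertase it serves, had 1 count in all 12 libraries.

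Per kilobase of exon sequence, and averaged over the 12 libraries, SCG2 led with 713.5 ± 170.0 CPM per kb, followed by VGF with 317.6 ± 69.8 and SERPINI1 with 78.4 ± 39.4 (SD, n = 12). The 12 libraries of these 3 did not overlap between SCG2 and VGF or between VGF and SERPINI1. Below them came CYB561 (28.7), DDC (27.4), CHGA (20.6), CHGB (17.9), SCG3 (15.5), DBH (14.4) and SCG5 (7.28), and each neighbouring pair from SERPINI1 down overlapped over the libraries. Within a library the order was firmer for SERPINI1 over CYB561 and CHGB over SCG3, which held in 12 of 12 libraries, than for CYB561 over DDC, CHGA over CHGB and SCG3 over DBH, which held in 8 of 12. SCG2 took 59.6 to 67.7% of the counts of the 6 granins and VGF 25.8 to 32.0%, and the granin sum lay between 2809 and 4009 CPM on 1 kPa, 2683 and 3511 on 8 kPa, and 2184 and 2385 on 30 kPa.

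Synthesis genes and granins were compared next. In the same order of comparisons (8 against 1, 30 against 1, 30 against 8 kPa), the median log2 fold change of the 3 synthesis genes was 0.24, 0.05 and -0.19, and that of the 6 granins 0.09, 0.03 and -0.06. The granin median at 30 against 1 kPa lies between CHGA, CHGB and SCG3 above 0 and SCG2, VGF and SCG5 below it, so it describes none of them. Ratios within a library, which do not depend on how libraries are scaled, were therefore taken for DBH and DDC against CHGA, CHGB and SCG2, with a pseudocount of 0.5 CPM and a two-sided exact permutation test of 4 against 4 libraries. The smallest exact p such a permutation test can give is 0.0286, and over the 18 tests the smallest adjusted p was 0.129, so 0 of 18 passed. At that floor an adjusted pass needs most of the 18 tests to reach it, so the 0 does not show that the ratios were unchanged.

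Relative to SCG2, both enzymes had higher mean ratios at 30 than at 1 kPa, without passing the adjusted threshold. The log2 ratio of DDC to SCG2 averaged -4.98 ± 0.23, -4.44 ± 0.21 and -4.08 ± 0.24 at 1, 8 and 30 kPa (SD, n = 4), with no overlap in any of the 3 comparisons; the differences were 0.54, 0.90 and 0.36 for 8 against 1, 30 against 1 and 30 against 8 kPa, each at the smallest exact p of 0.0286 (adjusted p = 0.129). The ratio of DBH to SCG2 averaged -5.48 ± 0.17, -5.18 ± 0.28 and -4.76 ± 0.27, and only the difference of 0.72 at 30 against 1 kPa was free of overlap (exact p = 0.0286, adjusted p = 0.129). The ratio of DBH to CHGB moved least, with differences of 0.03, -0.08 and -0.11 (exact p = 0.629, 0.429 and 0.114 in the same order). The ratio of DBH to CHGA was lower by a log2 difference of -0.37 at 30 against 1 kPa (exact p = 0.0571, adjusted p = 0.147). DDC to CHGA differed by 0.20, -0.19 and -0.39 (exact p = 0.343, 0.229 and 0.0857), again in the same order. DDC to CHGB differed by 0.27, 0.09 and -0.18 (exact p = 0.114, 0.686 and 0.0571). At 30 against 1 kPa the rise relative to SCG2 holds the fall of SCG2 itself, at -0.67 beside 0.05 for DBH and 0.20 for DDC. At 8 against 1 kPa SCG2 stood at -0.07, beside 0.24 for DBH and 0.46 for DDC. At 30 against 8 kPa SCG2 stood at -0.60, beside -0.19 for DBH and -0.26 for DDC.

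**Figure D3:**
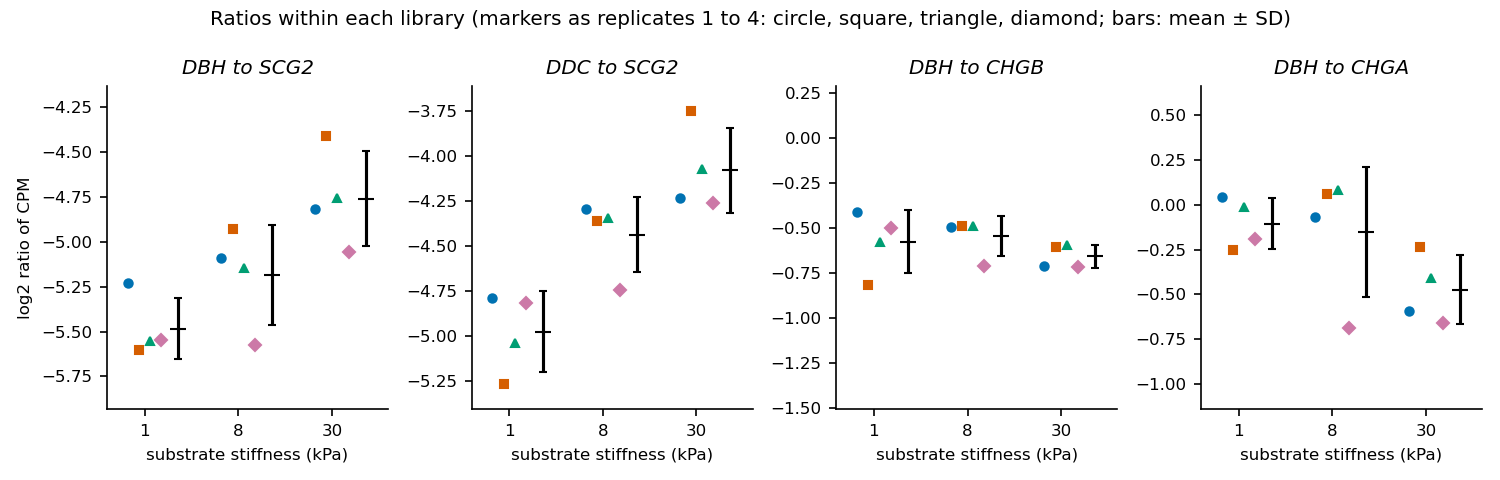
Log2 ratio of CPM within each library (vertical axis, each panel spanning the same range) against stiffness in kPa; markers are replicates 1 to 4 and bars the mean ± SD of 4 libraries. DDC to SCG2 steps from a mean of -4.98 to -4.44 to -4.08 without overlap, while DBH to CHGB stays between -0.82 and -0.41 in all 12 libraries.

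The 12 libraries differ in depth class and in stiffness, so correlations across them can hold both differences. Across these libraries the enzymes correlated with some granins more closely than those granins did with others. Pearson's r of log2 CPM was 0.96 between DBH and CHGB, 0.92 between DBH and DDC, 0.95 between DDC and SCG3 and 0.86 between CHGA and SCG3. SCG2 went with SERPINI1 (r = 0.95) and VGF (r = 0.90), and not with CHGA (r = -0.21) or SCG3 (r = 0.07). Once each group's mean was taken off, SCG2 and SCG3 moved together (r = 0.94), as did SCG2 and CHGA (r = 0.84), so these pairs shared their variation between libraries of a group and differed in the group means. Over the 36 pairs without SCG5 the r of these deviations ran from 0.20 to 0.99, and over the 9 pairs with SCG5 from -0.49 to 0.47. These are descriptions over 12 points, with no test.

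**Figure D4:**
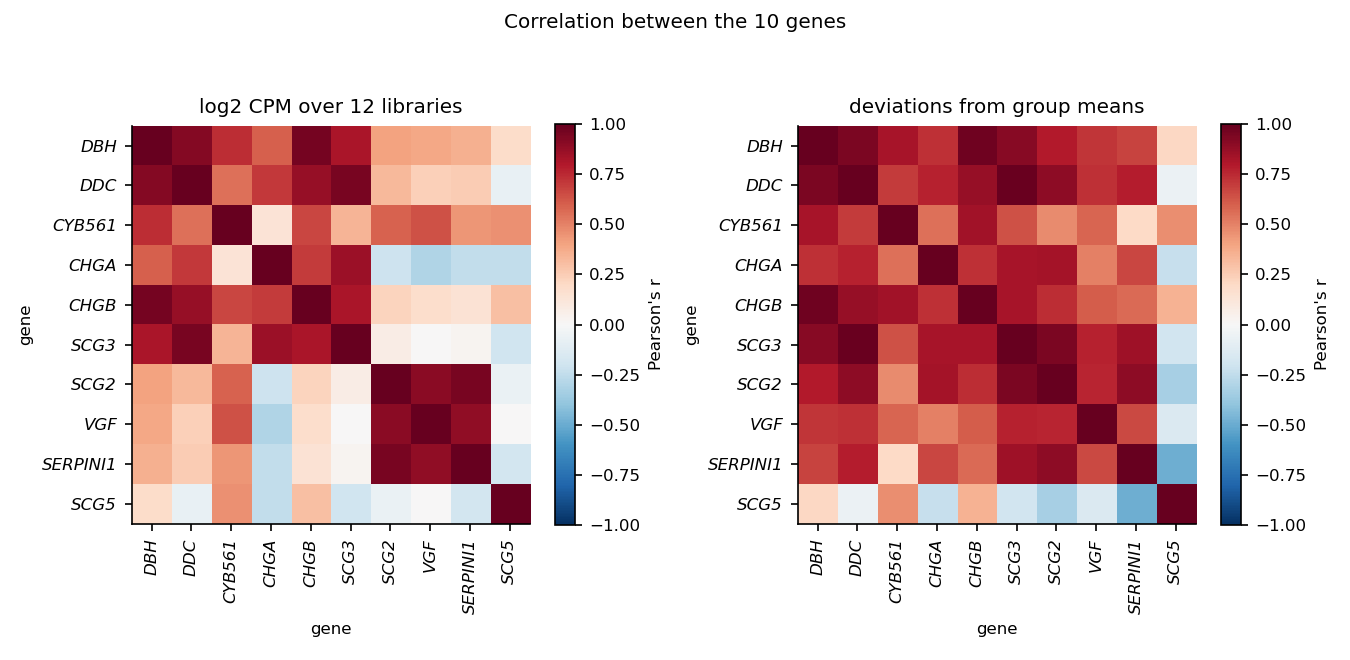
Pearson's r between the 10 genes (rows and columns) over 12 libraries, for log2 CPM on the left and for deviations from the group means on the right; red is positive and blue negative. On the left SCG2, VGF and SERPINI1 correlate more closely with one another (0.90 and 0.95 with SCG2) than with the other genes, of which CYB561 comes nearest (0.59 with SCG2), and on the right SCG5 alone stands apart.

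A few libraries were low or high for most of the genes. At 8 kPa replicate 4 was the lowest library for 9 of the 10 genes, the exception being CHGA, and at 1 kPa replicate 2 was the lowest for 6 and replicate 3 for 3. At 30 kPa replicate 2 was the highest for 6. By likeness of log2 CPM over the 12 libraries, among 11673 genes of at least 5 CPM with a symbol, the nearest to DBH were SCN3B, a sodium channel subunit (r = 0.96), CHGB (0.96), OLFM1 (0.95), TPD52 (0.95) and SDC2 (0.95). The nearest to CHGA were GRIN1, an NMDA receptor subunit (0.97), RPH3A, a Rab3 effector of exocytosis (0.96), UNC5A (0.95), CASC15 (0.94) and NPTX2 (0.94).

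Of 16 other genes of catecholamine synthesis, cofactors, transport and breakdown, 12 were tested. At 8 against 1 kPa 3 rose and 0 fell, where 8.17% and 5.6% of all tested genes did. They were PCBD1 and QDPR, which recycle the tetrahydrobiopterin cofactor of aromatic amino acid hydroxylases, at log2 fold changes of 0.37 (SE 0.07, adjusted p = 0.00792) and 0.31 (SE 0.09, adjusted p = 0.0337), and MAOA, the mitochondrial monoamine oxidase, at 0.83 (SE 0.24, adjusted p = 0.036). MAOA went from 6.08 ± 2.23 to 11.0 ± 3.00 CPM and stood at 10.0 ± 1.57 at 30 kPa. At 30 against 1 kPa 0 of the 12 passed edgeR's test, with 3 at an unadjusted p under 0.05, and at 30 against 8 kPa 0 passed, with 1. Leaving out each library in turn, PCBD1 kept its call in 12 of 12 fits, MAOA in 7 and QDPR in 6, and none of them was called with depth class as a term.

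Of 23 genes of prohormone processing and the granule membrane, 21 were tested. At 8 against 1 kPa PTPRN2, a granule membrane phosphatase-like protein, rose by 0.48 on the log2 scale (SE 0.10, adjusted p = 0.0122) and SYT7, a calcium sensor of exocytosis, by 0.52 (SE 0.15, adjusted p = 0.0369). CPE, the carboxypeptidase that trims granule peptides, fell by 0.19 (SE 0.06, adjusted p = 0.0451), from 223 ± 10.2 to 196 ± 12.4 CPM. At 30 against 1 kPa PTPRN2 (0.44, adjusted p = 0.0415) and SNAP25, a membrane fusion protein (0.31, adjusted p = 0.0427), rose and SV2A, a vesicle glycoprotein, fell by 0.23 on the log2 scale (adjusted p = 0.0384). The 3 of 21 called at each comparison stand beside 13.8% and 2.43% of all tested genes, and the list medians were 0.05 and -0.02. Leaving out each library in turn, the call at 8 against 1 kPa was kept in 11 of 12 fits by PTPRN2, in 5 by SYT7 and in 1 by CPE, and the call at 30 against 1 kPa in 2 by PTPRN2, in 2 by SNAP25 and in 4 by SV2A. None of these calls was made with depth class as a term. The convertase gene PCSK1 was low, with 1 to 50 counts per library and means of 1.21, 1.14 and 0.23 CPM; 30 kPa replicate 2 held 16 of its counts and the other 30 kPa libraries 4 or fewer (log2 fold change -2.42 at 30 against 1 kPa, SE 0.87, adjusted p = 0.151).

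Among 18 neuropeptide genes, 8 were tested and 0 passed edgeR's test in any comparison; at an unadjusted p under 0.05 there were 0, 2 and 4 for 8 against 1, 30 against 1 and 30 against 8 kPa, where 31.2%, 18.9% and 17.9% of all tested genes were. NPY and NTS, named after their values were seen, had log2 fold changes of -0.74 (SE 0.27, adjusted p = 0.157) and -1.24 (SE 0.36, adjusted p = 0.0826) at 30 against 1 kPa. Of 17 noradrenergic and neuroendocrine transcription factors 15 were tested. At 8 against 1 kPa 2 of the 15 passed as higher and 0 as lower, where 8.17% and 5.6% of all tested genes did, 13.8% in either direction. At 30 against 1 kPa 1 passed as higher and 0 as lower, where 1.1% and 1.33% did. PHOX2A, a homeodomain factor that acts at the DBH promoter, rose at 8 against 1 kPa by 0.49 on the log2 scale (SE 0.13, adjusted p = 0.0264), as did GATA2 by 0.46 (SE 0.12, adjusted p = 0.0265). At 30 against 1 kPa PHOX2A was higher by 0.52 (adjusted p = 0.0475), while DBH stood at 0.05; that call of PHOX2A was kept in 2 of 12 fits without 1 library and lost with library size alone, limma-voom or the depth term. At 8 against 1 kPa PHOX2A and GATA2 each kept their call in 7 of 12 such fits. REST, a repressor of neuronal and granin genes, had -0.11, -0.18 and -0.07 in the order of comparisons above, none past the threshold, and INSM1 had no count in 12 libraries.

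**Figure D5:**
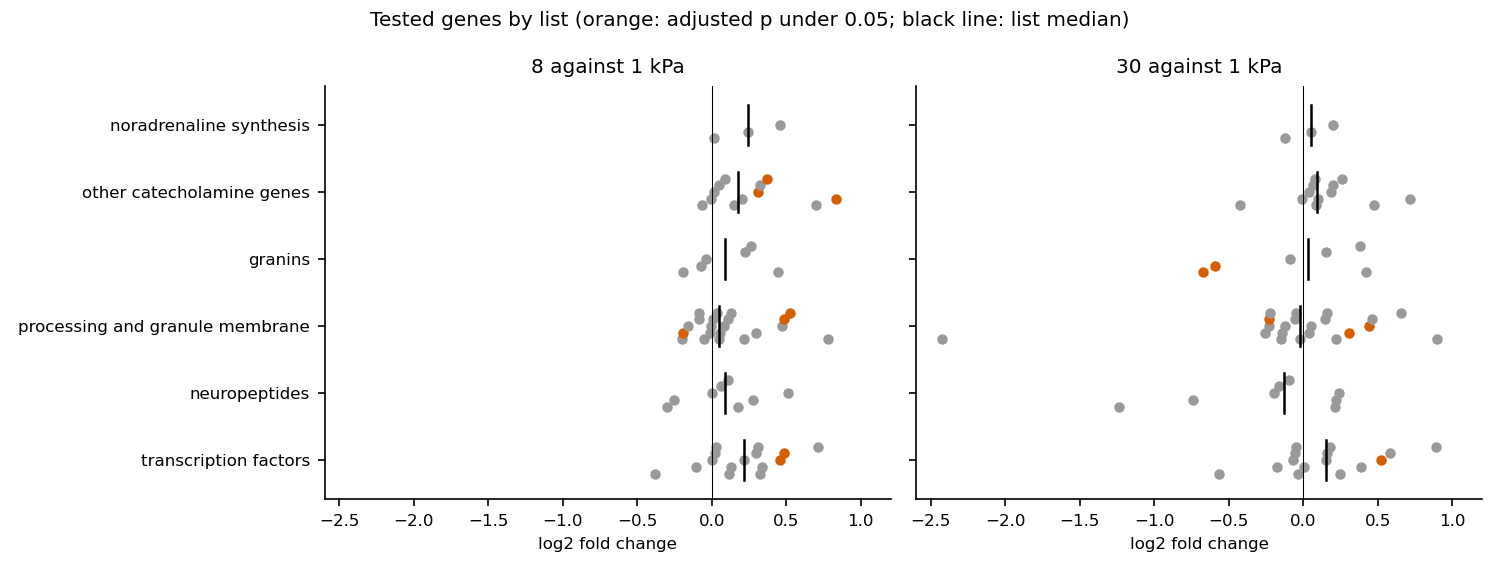
Log2 fold change (horizontal axis) of every tested gene in the 2 lists of noradrenaline synthesis and granin genes described above and in 4 related lists, for 8 against 1 and 30 against 1 kPa; each dot is a gene, orange for an adjusted p under 0.05, and black lines are list medians. SCG2 and VGF are the orange dots of the granins, at -0.67 and -0.59, and the transcription factor PHOX2A is orange on both sides.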

How the data were processed

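The authors deposited unnormalized counts for each gene in 12 RNA-seq libraries. Per the labels' protocols, total RNA was isolated with TRIzol. Alignment used HISAT2 and GRCh38, per the submitters' processing notes. The counting tool, annotation and strand setting are not given in the sources used here. Of 60664 identifiers, 60463 were matched to gene names. Positions are from GENCODE v29.

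Counts were fitted in R 4.3.3 with edgeR 4.0.16 (filterByExpr, 17960 genes holding at least 99.87% of counts, TMM, all 12 libraries, stiffness as the only term, quasi-likelihood F-test). P-values were adjusted over all tested genes by the Benjamini-Hochberg method. Adjusted p-values in the text are from edgeR unless DESeq2 is named. SE is the log2 fold change over the root of F. Intervals are 95%. CPM uses TMM-scaled library sizes. Ratios used exact permutation, adjusted over 18 tests.

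The 10 genes, the related lists and the tests were chosen with earlier results of these data known. Named are the 10 genes, overlapping genes, up to 3 called genes per list and comparison, the 5 nearest to DBH and to CHGA, and TH, PNMT, SLC18A1, SLC18A2, REST, PCSK1 and CPE (1 further gene named by the rule is not reported here); INSM1, PCSK2, NPY, NTS, PECAM1 and CDH5 were added after their values were seen. The labels do not say that replicate numbers pair libraries. Over 11865 genes, deviations of same-numbered libraries correlated at 0.12 to 0.311 between 1 and 30 kPa, at 0.111 to 0.691 between 8 and 30 kPa and at -0.266 to 0.537 between 1 and 8 kPa. Differently numbered libraries were not compared, so this check cannot show that the numbers pair. With the replicate number as a block, 974 genes in place of 437 were called at 30 against 1 kPa and 40 in place of 0 at 30 against 8 kPa. On simulated counts for 30 against 1 kPa (17085 genes), edgeR recovered 64% of 1.5-fold and 89% of 2-fold changes, with 10 false calls. The simulated counts were drawn independently for each gene in the libraries of those groups alone. They held no shared variation between genes and no shift tied to depth class. These rates therefore do not give the error of the calls made on the real libraries. Alternatives were median-ratio and library-size scaling, other filters, DESeq2 1.42.0, limma-voom (limma 3.58.1), the replicate block, a depth term, other pseudocounts and each library left out.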

Additional observations from a re-analysis of the deposited data

Results flagged for a closer look

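CYB561 in 30 kPa replicate 2, at 165.3 CPM, lay apart from the other 3 libraries of its group, which held 135.5 to 138.3 CPM; the gap took 0.906 of the group's range. It was the only one of 30 groups of 4 libraries (10 genes at 3 stiffnesses) to stand apart by Dixon's test at the 95% level, where chance gives about 5% of groups.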

How the results depend on the processing

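SCG2, VGF and SERPINI1 were lower at 30 against 1 kPa in every setting run, and each was called in 8 of 9 settings other than leaving out a library, the exception being depth class as a term. That term rests on 8 kPa replicate 1 against the other 8 kPa libraries. With it the count of the 10 genes called was 0 at 30 against 1 kPa and 0 across all stiffnesses, in place of 3. Leaving out each library gave 0 to 4 of the 10 called at 30 against 1 kPa, 0 to 2 at 8 against 1 kPa, 0 to 3 at 30 against 8 kPa and 2 to 4 across all stiffnesses. SCG2 kept its call at 30 against 1 kPa in 11 of 12 such fits, SERPINI1 in 10 and VGF in 7. Without the low-count filter the counts were 2 at 8 against 1 kPa (DDC and SCG3), 4 at 30 against 1 kPa (CHGA, higher, beside SCG2, SERPINI1 and VGF), 3 at 30 against 8 kPa (SCG2, SERPINI1 and VGF) and 5 across all stiffnesses. DESeq2 gave 1 (SCG3), 4 (the same with CHGA) and 2 (SCG2 and SERPINI1) in those comparisons, and fitting only the 8 libraries compared gave 1 (SCG2) at 30 against 8 kPa. At 30 against 8 kPa 3 genes (SCG2, SERPINI1 and VGF) passed without 8 kPa replicate 4, 2 (SCG2 and SERPINI1) without 1 kPa replicate 2 and 1 (SCG2) without 1 kPa replicate 4. The cause of these differences was not tested. With the replicate block the counts were 0, 4 and 0 in the order 8 against 1, 30 against 1 and 30 against 8 kPa, CHGA being the added gene, and no other call among the 10 changed. Between 1 and 8 kPa the deviations of same-numbered libraries correlated weakly or negatively in replicates 3 and 4 (r = 0.0413 and -0.266), while replicates 1 and 2 gave 0.537 and 0.461. A paired exact test of the ratios within a library passed 0 of 18 with the replicate block, where the smallest p is 0.125 and none could pass. In every other setting 0 of 18 passed, with a smallest exact p of 0.0286 that seldom allows an adjusted pass.

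Over the whole table, calls at 8 against 1 kPa went from 2472 to 3153 with DESeq2, to 1068 with only the 8 libraries compared and to 0 with the depth term. Without 1 library they ran from 534 (8 kPa replicate 3) to 3563 (1 kPa replicate 4). At 30 against 1 kPa they went from 437 to 263 with library size alone, 875 without the filter and 1068 with DESeq2, and to between 50 and 676 without 1 library. At 30 against 8 kPa they went from 0 to 330 without the filter, 430 with DESeq2, 61 with only the 8 libraries and 1026 without 8 kPa replicate 4. Across all stiffnesses they went from 1646 to 3117 with DESeq2, 2626 with the replicate block, 0 with the depth term, and 230 to 3234 without 1 library.

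Comparisons within the 5 shallow or the 7 deep libraries were chosen after seeing the data and called 0 of the 10. Signs changed only for log2 fold changes near 0 that were not called, as follows. At 8 against 1 kPa, the depth term gave -0.0309 for CYB561, 0.0574 for SCG2, 0.222 for SLC18A1 and 0.20 for PCSK1, and the 5 shallow libraries gave -0.0194, 0.0699, 0.235 and 0.211. SLC18A1 was 0.0207 with library size alone, 0.0124 without the filter and 0.00178 with DESeq2. SCG3 at 30 against 8 kPa was 0.00831 with the depth term and 0.0117 within the 7 deep libraries. Without 1 library in turn, values ran from -0.0775 to 0.196 for DBH and -0.285 to 0.0938 for SCG5 at 30 against 1 kPa. At 8 against 1 kPa they ran from -0.0661 to 0.0702 for CYB561, -0.16 to 0.0251 for SCG2, -0.202 to 0.139 for SCG5, -0.119 to 0.197 for SLC18A1 and -0.582 to 0.623 for PCSK1. At 30 against 8 kPa they ran from -0.196 to 0.0108 for CHGB, -0.173 to 0.0118 for SCG3, -0.239 to 0.115 for SCG5 and -0.0699 to 0.00611 for CPE. Of the 10 genes SCG5 had the fewest counts, 190 to 518 per library.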
